A study of Mus musculus with 4 samples.

Results

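The 8 genes described here act where mononucleated myoblasts recognise one another, adhere and merge into a muscle fiber. They were chosen by symbol: *Tmem8c* (*Mymk*, myomaker), *Gm7325* (*Mymx*, myomerger), *Jam2*, *Jam3*, *Elmo1*, *Dock1*, *Cdh15* and *Cdh2*. All 8 were found among the 24054 genes listed for the soleus libraries, and all 8 were among the 13652 genes with enough counts to be tested. The libraries came from female *mdx* mice (C57BL/10ScSn-DMDmdx/J), whose dystrophin gene is mutated and whose muscle fibers degenerate and regenerate. Dosing began at 8 weeks of age and was repeated once monthly for 12 months by infusion into the femoral vein. For 2 libraries the infusion held mouse cardiosphere-derived cells (mCDCs, stromal cells grown from the heart of a wild-type C57BL/10ScSn/J mouse and used at passage 5), and for 2 control libraries it held Iscove's medium alone (vehicle). Both groups were thus *mdx*, of the same age and infused on the same schedule, and a healthy muscle was not among the libraries.

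In a regenerating fiber, satellite cells leave quiescence, divide as myoblasts and withdraw from the cell cycle before they fuse. Cadherins and junctional adhesion molecules hold the apposed membranes, the ELMO and DOCK proteins form an exchange factor that switches on the GTPase Rac and remodels actin beneath the contact, and myomaker and myomerger act on the lipid bilayers themselves to mix the membranes and open the pore. Several of the adhesion and actin genes are also used by other cells of a muscle, endothelial cells and leukocytes among them, whereas the pair of fusogens is restricted to myogenic cells.

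Library totals ran from 22481391 to 27187425 expected counts, so depth differed little. Counts were scaled to CPM (counts per 1000000 of the library) with the trimmed mean of M-values, and the groups were compared with edgeR's quasi-likelihood test. Following the methods of the study, a call required more than a 1.5-fold difference together with p under 0.05 before adjustment. With these thresholds 172 genes were higher and 374 lower in mCDC muscles (31.5% of calls higher), or 4.0% of the genes tested, and no gene had an adjusted p under 0.05 (edgeR's quasi-likelihood test), while 947 (6.94%) passed 0.05 before adjustment. DESeq2 gave 48 genes with an adjusted p under 0.05 and edgeR's exact test 58, none of them among the 8. Without the trend along transcript length and GC content the split was 214 higher against 275 lower (43.8% of calls higher). An exact permutation test of 2 muscles against 2 could not give a p below 0.333. The slow fiber genes that mark a soleus were abundant, 8 of them summing to between 80833 and 98587 CPM. Vehicle replicate 2 stood apart in its endothelial genes: the 16 endothelial markers summed to 486 CPM there, against 266 and 224 CPM in mCDC replicates 1 and 2 and 223 CPM in vehicle replicate 1.

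Of the 8 fusion and adhesion genes, 2 were called, *Elmo1* and *Jam2*, both lower in mCDC muscles, against 4.0% of all genes tested in either direction, 2.74% in this direction and 1.26% in the other. The 2 fusogens and the muscle cadherin *Cdh15* were not called. The log2 fold changes of 6 of the 8 genes lay below 0, and their median was -0.40, beside -0.0094 over all genes tested and 51.6% of all genes below 0. With the length and GC trend removed, the median of the 8 was -0.23 and that of all genes 0.038. In 5 of the 8 genes both mCDC libraries lay below both vehicle libraries, and in 1, *Cdh15*, both lay above. Over all genes tested, 38.7% were separated, 19.4% in the first way and 19.2% in the second. No member had an adjusted p under 0.05 in any of the fits run.

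**Figure D1:**
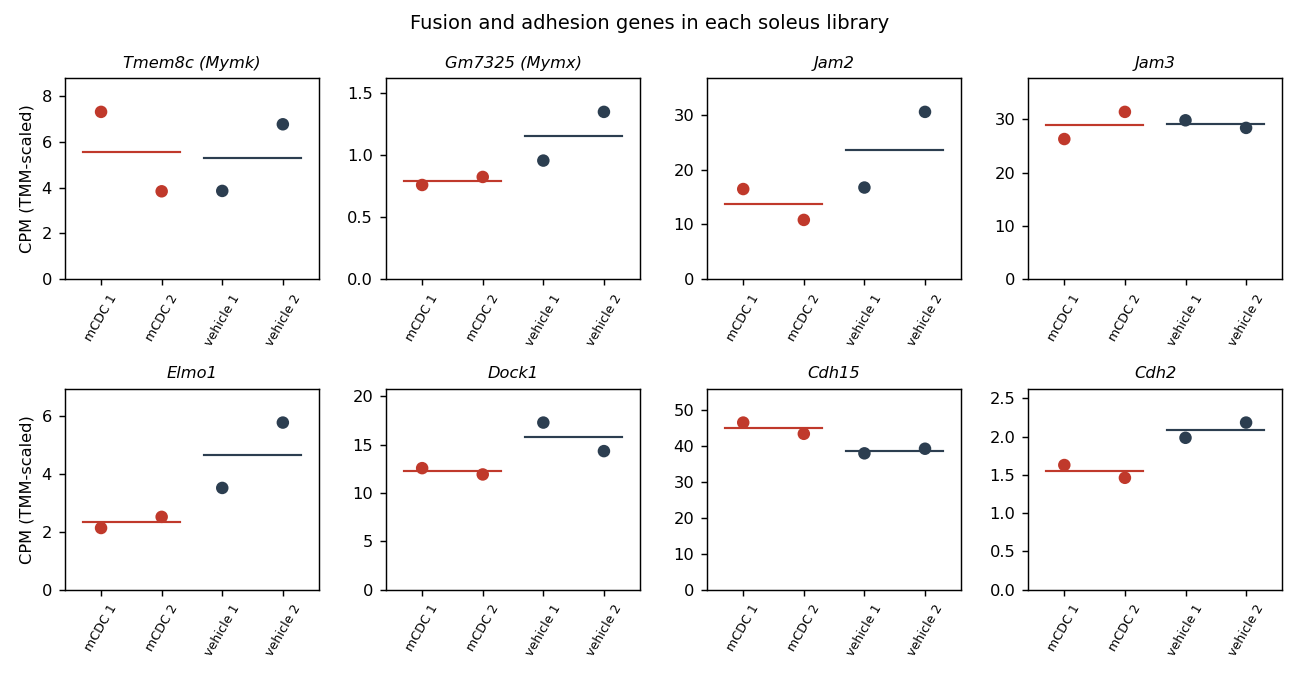
Each panel shows CPM of 1 gene in the 4 soleus libraries, with mCDC libraries in red, vehicle libraries in dark blue and a line at each group's mean (n = 2). Jam2 and Elmo1 were highest in vehicle replicate 2, at 30.6 and 5.76 CPM, while Tmem8c was high in 1 library of each group.

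Myomaker, listed as *Tmem8c* (GRCm38 chromosome 2, 27061636 to 27072179, minus strand), is the membrane protein that a myoblast needs in order to fuse. The mCDC muscles gave 7.31 and 3.84 CPM (replicates 1 and 2) and the vehicle muscles 3.85 and 6.77 CPM. The groups overlapped, and each held 1 library at the higher level and 1 at the lower. Those values rested on 193, 84, 101 and 186 counts, and the 95% Poisson interval of the counting error ran from 167 to 222 counts in mCDC replicate 1 and from 67.0 to 104 in mCDC replicate 2, so the spread within the mCDC group was wider than counting error. The log2 fold change was 0.08 (standard error 0.37, 95% interval -0.77 to 0.93, adjusted p = 0.972 from edgeR). It was -0.47 without mCDC replicate 1 and 0.54 without vehicle replicate 2, so no direction can be given from these libraries, and a change of 1.5-fold in either direction lies inside the interval.

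Myomerger, listed as *Gm7325* (chromosome 17, 45600971 to 45602102, minus strand), is the microprotein that completes the membrane merger which myomaker begins. It was the member with the fewest counts, 20 and 18 after mCDCs and 25 and 37 after vehicle. In CPM these were 0.757, 0.822, 0.954 and 1.35, with both mCDC libraries below both vehicle libraries. The 95% Poisson intervals of mCDC replicate 2 (10.7 to 28.5 counts) and vehicle replicate 1 (16.2 to 36.9 counts) overlapped. The log2 fold change was -0.55 (standard error 0.40, 95% interval -1.46 to 0.37, adjusted p = 0.776 from edgeR), and it stayed below 0, between -0.77 and -0.27, as each library was left out. Per kilobase of its longest coding transcript, myomaker exceeded myomerger in every library, by 2.35- to 5.61-fold, and by 1.65- to 3.94-fold with the median coding transcript length.

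The regulators and products of the same myogenic program were read beside the fusogens. *Myog*, the factor of terminal myoblast differentiation, stood at 32.6 and 63.3 CPM after mCDCs, compared with 21.3 and 24.4 after vehicle, and *Myod1*, the determination factor, had 50.4 and 30.5 against 19.1 and 26.0. Both were called higher, as was the satellite cell factor *Pax7*, with log2 fold changes of 1.07, 0.84 and 0.76. The embryonic and perinatal myosins *Myh3* and *Myh8*, which mark newly formed fibers, were not called, at -0.15 and -0.12. Of the 12 genes on the list of regeneration markers, 3 were called higher and 0 lower, with a median log2 fold change of 0.14. The shares of all genes tested were 1.26% higher and 2.74% lower. *Myf5*, another myogenic factor on that list, was at 0.034 and was not called. *Myog* was not called without mCDC replicate 2, at 0.51, and *Myod1* not without mCDC replicate 1, at 0.43, or vehicle replicate 1, at 0.64. *Pax7* was not called without mCDC replicate 1 (0.73), mCDC replicate 2 (0.78) or vehicle replicate 2 (0.65), nor with DESeq2 on all 4 libraries (0.77). A fit with a library left out has only 1 library in that group. A call can then be lost though the fold change hardly moves, as for *Pax7* at 0.78 beside 0.76.

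*Jam2* (chromosome 16, 84774123 to 84825928, plus strand) and *Jam3* (chromosome 9, 27097384 to 27155421, minus strand) encode junctional adhesion molecules that bind each other across apposed membranes, a contact used by fusing myoblasts in the fish embryo and at the junctions of endothelial cells in mammals. *Jam2* had 16.5 and 10.8 CPM in mCDC replicates 1 and 2, and 16.8 and 30.6 CPM in vehicle replicates 1 and 2. Both mCDC libraries lay below both vehicle libraries, but mCDC replicate 1 and vehicle replicate 1 differed by less than counting error, at 435 counts (95% Poisson interval 395 to 478) and 439 counts (399 to 482) before scaling. The log2 fold change was -0.79 (standard error 0.31, 95% interval -1.50 to -0.084), with an unadjusted p of 0.0327 and an adjusted p of 0.713 from edgeR. The call was lost without vehicle replicate 2, at -0.29, and without mCDC replicate 2, at -0.53. It was also lost at -0.68 once the length and GC trend was taken out and at -0.76 with the replicate number as a block, while the values without the remaining libraries were -1.13 and -1.16.

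*Jam3* was the steadiest of the members between groups. It had 26.3 and 31.4 CPM in mCDC libraries and 29.8 and 28.4 CPM in vehicle libraries. The groups overlapped and the log2 fold change was -0.01 (standard error 0.16, 95% interval -0.37 to 0.34, adjusted p = 0.991 from edgeR), an interval that leaves no room for a 1.5-fold change in this fit. Its exons share 1159 bases with an antisense gene that is not listed, and whether the counting used strand was not given in the sources used here. Per kilobase, *Jam3* exceeded its partner *Jam2* by 3.59- and 6.52-fold in the mCDC libraries and by 4.0- and 2.09-fold in the vehicle libraries. With the median coding transcript length, which is much shorter for *Jam2*, these ratios were 1.64 and 2.98 after mCDCs and 1.83 and 0.954 after vehicle, so that the order turned in vehicle replicate 2. *F11r*, the third of the JAM genes, had 7.65 and 6.88 CPM in mCDC and 7.33 and 12.8 CPM in vehicle libraries, with a log2 fold change of -0.47 that was not called. It was -0.0093 without vehicle replicate 2, and -0.81 and called lower without vehicle replicate 1. Of 10 tested genes on the list of JAM relatives and junction adaptors, 0 were called, with a median of -0.15. *Esam*, an endothelial adhesion molecule, and the scaffold *Tjp1* stood at -0.60 and -0.47 and were not called. Without vehicle replicate 2 they were at 0.070 and -0.16, and without vehicle replicate 1 both were called lower, at -1.05 and -0.72.

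*Elmo1* (chromosome 13, 20090596 to 20608353, plus strand) encodes the scaffold that brings DOCK1 to the membrane, and *Dock1* (chromosome 7, 134670654 to 135173639, plus strand) encodes the exchange factor for Rac. RefSeq gives 2 starts for *Elmo1* on GRCm38.p6, and the 300 bases around each are shown because *Elmo1* had the lowest fold change of the members. The start region of *Cdh15* is shown beside them, since it is the member most bound to muscle cells among those with a listed promoter. Each runs from 250 bases before the start to 50 after it, 5′ to 3′ on the plus strand, and capitals mark E-boxes (CANNTG, the letters bound by MYOD1, myogenin and other helix-loop-helix factors, which read alike on both strands).
Elmo1 first start, chr13:20090257-20090556: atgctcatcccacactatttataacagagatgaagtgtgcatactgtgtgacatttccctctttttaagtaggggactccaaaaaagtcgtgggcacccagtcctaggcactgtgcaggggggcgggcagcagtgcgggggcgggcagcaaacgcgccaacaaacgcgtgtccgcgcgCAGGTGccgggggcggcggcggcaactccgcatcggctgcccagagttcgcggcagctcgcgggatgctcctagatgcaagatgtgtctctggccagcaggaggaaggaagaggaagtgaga
Elmo1 second start, chr13:20472740-20473039: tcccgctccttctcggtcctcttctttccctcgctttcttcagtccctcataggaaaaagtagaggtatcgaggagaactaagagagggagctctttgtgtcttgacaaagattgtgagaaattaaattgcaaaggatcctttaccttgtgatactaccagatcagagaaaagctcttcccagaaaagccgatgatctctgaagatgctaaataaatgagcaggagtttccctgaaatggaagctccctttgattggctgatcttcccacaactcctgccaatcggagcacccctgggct
Cdh15, chr8:122848124-122848423: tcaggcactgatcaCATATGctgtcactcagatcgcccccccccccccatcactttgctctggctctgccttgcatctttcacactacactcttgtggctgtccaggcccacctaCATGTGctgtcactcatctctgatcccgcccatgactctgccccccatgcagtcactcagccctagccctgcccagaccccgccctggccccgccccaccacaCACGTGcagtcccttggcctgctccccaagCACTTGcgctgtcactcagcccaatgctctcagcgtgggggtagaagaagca
The window at the first *Elmo1* start held 1 E-box, of the CAGGTG form, the second held 0, and that of *Cdh15* held 4, none of the forms CAGCTG or CAGGTG, the reverse complement of the latter included. These starts are those of RefSeq. For *Cdh15* the GENCODE start, at 122847966, lies upstream of the whole window, so the 4 E-boxes fall within the gene as GENCODE places it. *Dock1* also had a listed promoter, with 1 E-box. Of 32851 promoters of this length, 72.3% held at least 1 CANNTG, 16.3% held CAGCTG and 20.2% held CAGGTG on either strand. *Mymk*, *Mymx*, *Jam2*, *Jam3* and *Cdh2* were not among the promoters used here.

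*Elmo1* had 2.13 and 2.51 CPM in mCDC replicates 1 and 2, and 3.51 and 5.76 CPM in vehicle replicates 1 and 2. Both mCDC libraries lay below both vehicle libraries, and vehicle replicate 2 was the highest. The expected counts were 56.2 and 55 against 92.0 and 158. Of the 31-base words in its transcripts, 0.199% occur in other genes as well. The log2 fold change was -1.0 (standard error 0.31, 95% interval -1.73 to -0.28), with an unadjusted p of 0.0125 and an adjusted p of 0.643 from edgeR. *Elmo1* kept its call under the 8 other tests, scalings, filters and fits run on all 4 libraries, the length and GC trend included, where it was at -0.85. It was not called without vehicle replicate 2, at -0.60, nor without mCDC replicate 1, at -0.88. In the latter fit the standard error of *Elmo1* was 0.44, beside 0.31 with all 4 libraries. An antisense gene, which is not listed, overlaps 403 bases of its exons.

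*Dock1* had 12.6 and 11.9 CPM in mCDC libraries and 17.3 and 14.3 CPM in vehicle libraries, again with both mCDC libraries below both vehicle libraries. Unlike *Jam2* and *Elmo1*, it was highest in vehicle replicate 1. The log2 fold change of -0.37 did not reach 1.5-fold (standard error 0.18, 95% interval -0.78 to 0.043, adjusted p = 0.726 from edgeR), and it was -0.16 with the length and GC trend removed.

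**Figure D2:**
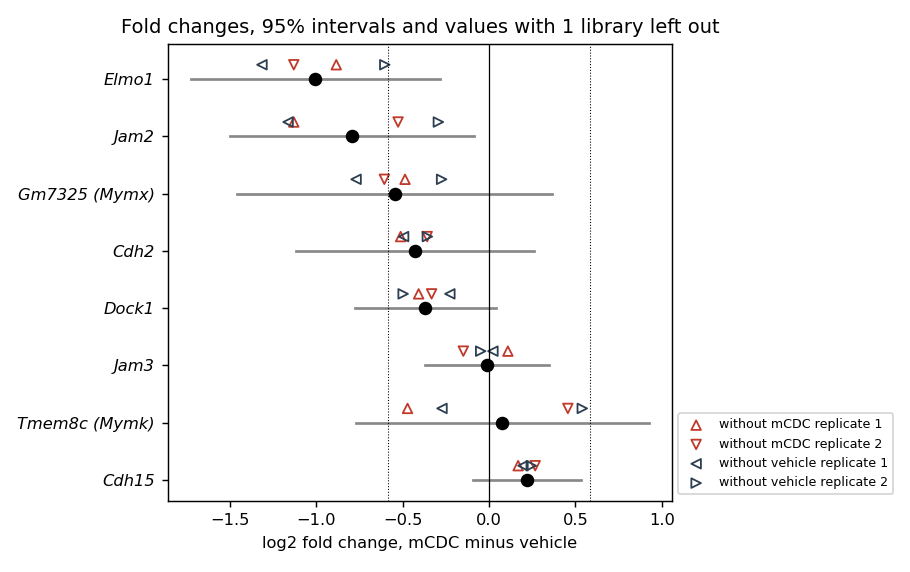
Black points give the log2 fold change of each gene between mCDC and vehicle muscles with its 95% interval (grey line), open triangles give the value with 1 library left out, and dotted lines mark 1.5-fold. The values of Tmem8c fell on both sides of 0, from -0.47 to 0.54, while those of Elmo1 stayed between -1.31 and -0.60.

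Per kilobase of the longest coding transcript, *Elmo2* made up 59.6% to 70.0% of the 3 ELMO genes in the 4 libraries and *Elmo1* made up 8.74% to 20.4%. The place of *Elmo1* depended on the length used: its mean over the 4 libraries was 0.636 CPM per kilobase beside 1.0 for *Elmo3* with the longest transcript, and 2.68 beside 1.16 with the median length, while *Elmo2* was highest with both (3.18 and 4.88). *Elmo2* and *Elmo3* were not called, with log2 fold changes of -0.12 and -0.00098, and the sign of *Elmo3* changed with the test. *Dock1* made up 58.6% to 66.2% of *Dock1* to *Dock5* per kilobase of the longest transcript. With the median length the means were 5.42 for *Dock1* and 0.944 for *Dock4*. *Dock4*, an exchange factor for Rac and Rap, was next and was called lower, with levels of 5.72 and 4.71 CPM after mCDCs and of 10.2 and 9.46 CPM after vehicle. Its log2 fold change was -0.91, with a standard error of 0.21 (edgeR adjusted p = 0.566). *Dock4* was called lower in every alternative run, each left-out library included. *Dock5*, which acts with *Dock1* in muscle, and the leukocyte gene *Dock2* were at -0.10 and -0.14, each of them crossing 0 with a library left out or the length and GC trend removed. *Rac1* and the adaptor *Crk* were at 0.06 and -0.03 and also crossed 0 as libraries were left out.

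Of 25 tested genes on the list of the ELMO, DOCK and Rac arm and its actin effectors, 1 was called higher and 2 lower. The shares of all genes tested were 1.26% and 2.74%, and the median log2 fold change of the 25 was -0.040. The gene called higher was *Arf6*, a GTPase of membrane recycling and cadherin traffic, with 66.8 and 98.0 CPM in mCDC libraries and 53.5 and 45.8 CPM in vehicle libraries (log2 fold change 0.73, standard error 0.20, adjusted p = 0.619 from edgeR). Besides *Dock4*, the gene called lower was *Wipf1*, which binds the actin nucleation promoter WASP, at -0.68. *Arf6* was not called without mCDC replicate 2, at 0.43. *Wipf1* was not called without mCDC replicate 1 or vehicle replicate 2, at -0.56 in each, or with the length and GC trend taken out, also at -0.56. The receptor genes *Adgrb1* and *Adgrb3*, which are listed as *Bai1* and *Bai3* and lie upstream of ELMO in myoblasts, were not tested. *Bai1* had at most 0.364 CPM, and *Bai3* had no count in any library.

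*Cdh15* (chromosome 8, 122847966 to 122867397, plus strand) encodes M-cadherin, which joins satellite cells to their fiber and myoblasts to one another. It had 46.6 and 43.5 CPM in mCDC replicates 1 and 2, and 38.0 and 39.3 CPM in vehicle replicates 1 and 2. It was the 1 member in which both mCDC libraries lay above both vehicle libraries. The log2 fold change was 0.22 (standard error 0.14, 95% interval -0.094 to 0.53, adjusted p = 0.763 from edgeR), short of 1.5-fold, and it stayed between 0.17 and 0.27 as each library was left out. *Cdh2*, on chromosome 18, encodes N-cadherin, which myoblasts, nerve and mesenchymal cells share. It had 1.63 and 1.46 CPM in mCDC libraries and 1.98 and 2.18 CPM in vehicle libraries, from 43, 32, 52 and 60 counts. The groups did not overlap, and the log2 fold change was -0.43 (standard error 0.30, 95% interval -1.11 to 0.26, adjusted p = 0.768 from edgeR). Per kilobase, *Cdh15* exceeded *Cdh2* by 42.6- and 44.3-fold in the mCDC libraries and by 28.6- and 26.8-fold in the vehicle libraries. Among the 5 classical cadherins compared here, the endothelial *Cdh5* was the other one of this level, with 11.1 and 7.95 CPM per kilobase in mCDC libraries and 8.98 and 19.8 in vehicle libraries. *Cdh5* was not called, at -0.59, but was called lower without vehicle replicate 1 (-1.06) or mCDC replicate 1 (-0.86), and was at 0.087 without vehicle replicate 2.

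Of the 16 tested genes on the list of other cadherins and catenins, 0 were called higher and 2 lower. The shares of all genes tested were 1.26% and 2.74%, and the median log2 fold change of the 16 was -0.23. In 8 of the 16 both mCDC libraries lay below both vehicle libraries, where 19.4% of all genes tested did. The 2 called were *Boc*, a cadherin-associated receptor of myoblasts, at -0.60, and *Cdh23*, a long cadherin best known from hair cells, at -1.14. *Boc* lost its call in 6 of 12 alternatives, among them without mCDC replicate 1 (-0.65), mCDC replicate 2 (-0.55) and vehicle replicate 2 (-0.50). *Cdh23* lost its call without mCDC replicate 2 (-0.69) and without vehicle replicate 2 (-0.83). The catenins that tie cadherins to actin, *Ctnna1*, *Ctnnb1* and *Ctnnd1*, were at -0.19, -0.10 and -0.096 and were not called. *Cdh11*, a mesenchymal cadherin, was at -0.30, *Cdh13*, which lacks a cytoplasmic tail, was at 0.08 and had the higher level of 51.7 CPM per kilobase after mCDCs and 48.9 after vehicle, and *Cdh4* had too few counts to be tested, at 0.32 to 0.42 CPM.

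**Figure D3:**
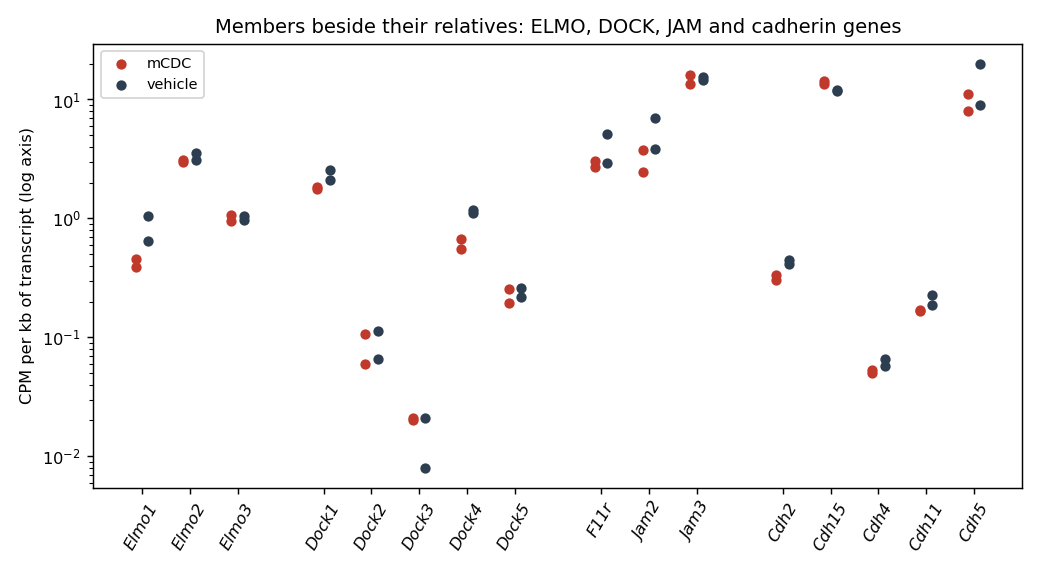
CPM per kilobase of the longest coding transcript (log axis) in each library, for the ELMO, DOCK, JAM and cadherin genes, with mCDC libraries in red and vehicle libraries in dark blue. Elmo2, Dock1 and Jam3 held the highest level in their families, and Cdh15 and Cdh5 stood far above Cdh2, Cdh4 and Cdh11.

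Per kilobase of the longest coding transcript, the members ran from *Jam3* (mean 14.9 CPM per kilobase over the 4 libraries) and *Cdh15* (12.9) through *Jam2* (4.27), *Tmem8c* (3.94), *Dock1* (2.06) and *Gm7325* (1.21) to *Elmo1* (0.636) and *Cdh2* (0.375). The ranges over libraries overlapped for *Jam3* and *Cdh15*, for *Jam2* and *Tmem8c*, for *Gm7325* and *Elmo1*, and for *Elmo1* and *Cdh2*. The other neighbours did not overlap. With the median coding transcript length instead, *Jam3*, *Cdh15* and *Jam2* kept the first 3 places and *Cdh2* the last, while *Dock1* (5.42) passed *Tmem8c* (4.2) and *Elmo1* (2.68) passed *Gm7325* (1.83). Against all genes tested, the mean log2 CPM of the members lay between the 10.5th percentile (*Gm7325*) and the 75.9th (*Cdh15*).

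The list of other fusion machinery and membrane proteins had 27 tested genes, and 0 were called in either direction. Its median log2 fold change was 0.093. *Myof*, a ferlin of membrane trafficking in myoblasts, had 4.43 and 5.12 CPM in mCDC libraries and 4.35 and 6.22 CPM in vehicle libraries, and *Adam12*, a disintegrin of regenerating fibers, had 1.36 and 0.914 against 1.22 and 1.31. Both overlapped between the groups, at -0.15 and -0.14, and both changed sign with the length and GC trend removed.

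**Figure D4:**
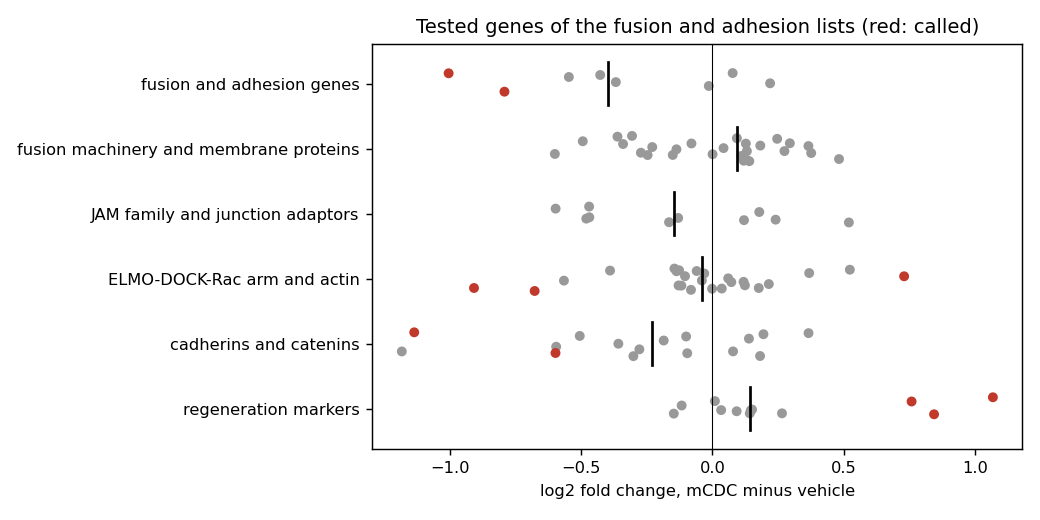
Each point is a tested gene, placed by its log2 fold change between mCDC and vehicle muscles, with genes called in red and the list's median as a black bar. The lists are the fusion and adhesion genes, their 4 pathway lists and the regeneration markers, and among these 6 the medians ran from -0.40 for the first to 0.14 for the last, where the 3 genes called were all higher.

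Of the 8 members, 4 (*Jam2*, *Elmo1*, *Gm7325* and *Cdh2*) were highest in vehicle replicate 2, the library where markers of several other cell types were also highest. How many of all genes tested were highest there was not counted. For *Gm7325* the 95% Poisson intervals of vehicle replicates 2 and 1 overlapped, at 26.05 to 51 and 16.2 to 36.9 counts. Those of *Cdh2* also overlapped, at 45.8 to 77.2 and 38.8 to 68.2 counts. All 16 endothelial markers had a log2 fold change below 0, with a median of -0.58. Calls over all genes tested were 1.26% higher and 2.74% lower. Among the endothelial markers, 3 of 16 (*Flt1*, *Vwf* and *Sox17*) were called lower. Without vehicle replicate 2 these calls were lost, at -0.17, -0.55 and -0.55. As given above, their sum was 486 CPM in vehicle replicate 2 and between 223 and 266 CPM in the other 3 libraries, so the sums overlapped between the groups. The 12 markers of fibro-adipogenic progenitors, the connective tissue cells of muscle, had a median of -0.43 and 3 called lower, with sums of 641 and 539 CPM in mCDC libraries and 614 and 989 CPM in vehicle libraries. The calls of *Pdgfra*, *Smoc2* and *Lum* on that list were also lost without vehicle replicate 2, at -0.23, -0.28 and -0.47. The 18 macrophage and leukocyte markers, of which 14 were tested, summed to between 52.7 and 92.0 CPM with 1 called higher (*Cd68*) and 1 lower (*Csf1r*), and the leukocyte gene *Cd3g* had no count in any library. *Cd68* had 15.4 CPM in mCDC replicate 2 and between 2.71 and 4.15 in the other libraries, and fell from a log2 fold change of 1.49 to 0.26 without that library, while *Csf1r* lost its call in 6 of 12 alternatives, among them without vehicle replicate 2 (-0.30) and mCDC replicate 2 (-0.50). The 7 lymphatic markers had 3 called lower (*Prox1*, *Flt4* and *Reln*) and a median of -0.67, with sums of 21.7 and 17.1 CPM against 27.7 and 25.6. Each of these 3 calls was lost without at least 1 library, *Prox1* moving to -0.29 without vehicle replicate 1, *Flt4* to -0.36 without vehicle replicate 2 and *Reln* to -0.88 without mCDC replicate 2. *Jam2* and *Elmo1* were also taken as a percentage of the summed endothelial CPM, a ratio chosen after the values were seen. *Jam2* was at 6.2 and 4.84 in mCDC replicates 1 and 2, and at 7.5 and 6.3 in vehicle replicates 1 and 2. *Elmo1* was at 0.801 and 1.12 against 1.57 and 1.19. The groups did not overlap in either ratio, and how often this happens over all genes was not counted. The part of all these markers in the results of the 4 members highest in vehicle replicate 2 was not tested. In a whole muscle, fewer cells of a type and less RNA per cell cannot be told apart.

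**Figure D5:**
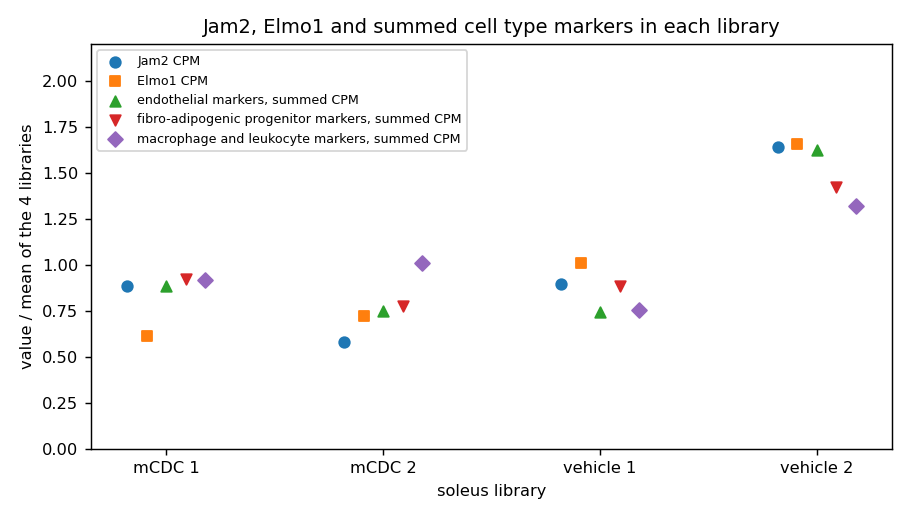
Jam2, Elmo1 and the summed CPM of 3 marker lists in each library, each divided by its mean over the 4 libraries. All 5 were highest in vehicle replicate 2, where the endothelial markers summed to 486 CPM.

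The lists that follow stand beside 1.26% of all genes tested called higher and 2.74% called lower. Of 11 tested satellite cell markers, *Pax7* was called higher and *Chodl*, a satellite cell lectin, lower, with a median of 0.011. Of 10 Schwann cell markers, whose cells express *Cdh2*, 0 were called, with a median of -0.44. Of 10 pericyte and smooth muscle markers, *Cspg4* was called higher and *Rgs5* lower, with a median of -0.017. Of 7 tendon and myotendinous genes, *Scx* was called higher and *Tnmd* and *Fmod* lower, with a median of -0.43. Of 12 genes of the neuromuscular junction and of denervated fibers, *Myog* and *Runx1* were called higher and 0 lower, with a median of 0.22. *Scx* and *Tnmd* kept their calls in the 12 alternatives. Without mCDC replicate 2 the calls were lost for *Chodl* (-0.80), *Cspg4* (0.19), *Rgs5* (-0.54) and *Runx1* (0.26), and for *Fmod* without mCDC replicate 1 (-0.55) or vehicle replicate 1 (-0.67). The call of *Cspg4* was also lost without vehicle replicate 1 (0.57), without vehicle replicate 2 (0.69) and with the replicate block (0.58), that of *Runx1* without vehicle replicate 2 (0.44) and with the replicate block (0.63), and that of *Rgs5* with the length and GC trend taken out (-0.48).

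Likeness among the genes was measured as the root mean square distance between log2 CPM values centred on each gene's mean over the 4 libraries, among the 192 other tested genes on these lists. The genes nearest to *Tmem8c* were *Msc* (0.138) and *Fgfr4* (0.165). Those nearest to *Jam2* were *Pdgfra* (0.0945) and *Flt1* (0.118), and those nearest to *Elmo1* were *Sox17* (0.0393) and *Lum* (0.0872). *Cdh15* lay nearest to *Myl3* (0.0334) and to *Jup* (0.0543). *Gm7325* lay nearest to *Col22a1* (0.0755) and *Mbp* (0.0821), *Jam3* to *Capn2* (0.0436) and *Nckap1* (0.0473), *Dock1* to *Cdh11* (0.0539) and *Ctnna1* (0.0998), and *Cdh2* to *Ctnnal1* (0.0766) and *Boc* (0.0883). Since neighbours were sought only on these lists, genes outside them could lie closer: of all genes tested, 0.227% lay closer to *Tmem8c* than *Msc* did, 0.0952% closer to *Jam2* than *Pdgfra* and 0 closer to *Elmo1* than *Sox17*, and the share reached 3.46% for *Dock1* and *Ctnna1*. These distances rest on 4 libraries and carry no test.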

How the data were processed

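Soleus RNA of 4 *mdx* libraries was sequenced as single-end reads. The authors mapped the reads with Bowtie2 (2.1.0 in the submitters' processing notes, which also name the mm10 build) to a UCSC transcript set and deposited RSEM 1.2.15 expected counts per gene symbol, without normalization. Libraries were grouped by the treatment in their titles. The labels name a TruSeq Stranded kit and the methods another one. The labels do not say that equal replicate numbers pair mice, nor that replicates are separate animals, so p-values measure only the spread between these libraries, which may be technical. Expected counts were rounded and all 24054 genes entered R 4.3.3 with edgeR 4.0.16: filterByExpr kept genes, M-value trimming set the scale and the quasi-likelihood F-test ran with legacy = FALSE, with Benjamini-Hochberg adjustment over the 13652 genes kept. Standard errors are the absolute log2 fold change over the square root of F. CPM used scaled library sizes, and log2 CPM a prior count of 2. Poisson intervals cover counting error only. Transcript lengths, GC content, locations and shared words came from GENCODE M21 on GRCm38, where 22750 symbols matched by name, 935 by an older name and 369 not; promoters came from RefSeq GRCm38.p6. The genes named are the 8 members, called genes of the lists and a fixed set of partners. The members and lists were chosen with earlier results of these data known. The fit was run on simulated data as a check of the code, which does not measure its power in these libraries. Alternatives were DESeq2 1.42.0, edgeR's legacy and exact tests, other size factors and filters, a block for the replicate number, subtraction of the trend with length and GC, and fits without each library. The last leave 1 library in a group, so a call lost there need not mean a smaller fold change.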

Additional observations from a re-analysis of the deposited data

How the results depend on the processing

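Leaving out each library in turn, between 0 (without vehicle replicate 2) and 2 (without vehicle replicate 1) of the 8 genes were called, the number of genes called higher ran from 103 to 383 and of those called lower from 226 to 835. The number of the 8 called was also 1 with the replicate number as a block and 1 with the length and GC trend removed. With the replicate block 172 genes were called higher and 308 lower, and *Jam2* was at -0.76 (unadjusted p = 0.0637 from edgeR) and *Elmo1* at -0.97 and still called. The deviations of equally numbered libraries from their group means correlated at -0.039 over genes, so the numbers were not treated as pairs. Median log2 fold changes of the 8 stayed below 0 in every alternative, from -0.48 to -0.23. Of 96 values of the 8 genes under alternatives, 86 kept direction and call, 6 lost a call and 4 changed sign. Only *Jam2* and *Elmo1* had a call to lose, and they kept it in 8 and 10 of 12 alternatives. All 4 changes of sign came with a library left out: *Tmem8c* ran from -0.47 to 0.54 and *Jam3* from -0.15 to 0.11. Signs also changed for other uncalled genes as libraries were left out: *Adam12* ran from -0.47 to 0.10, *Cdh13* from -0.16 to 0.37, *Cdh5* from -1.06 to 0.087, *Crk* from -0.19 to 0.14, *Ctnnd1* from -0.31 to 0.15, *Dock2* from -0.60 to 0.31, *Dock5* from -0.31 to 0.092, *Elmo3* from -0.082 to 0.078, *Esam* from -1.05 to 0.070, *Myh8* from -0.54 to 0.21, *Myof* from -0.38 to 0.13 and *Rac1* from -0.053 to 0.18. With the length and GC trend removed, *Adam12* was at 0.043, *Crk* at 0.041, *Ctnnd1* at 0.093, *Dock2* at 0.035, *Dock5* at 0.14, *Elmo3* at 4.6e-04, *Myh8* at 0.056 and *Myof* at 0.044. *Elmo3* was at 0.012 with DESeq2, 8.5e-05 with the legacy test, 0.0022 with RLE size factors and 7.4e-04 with the replicate block. The cause of these changes was not tested.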
